A study of Mus musculus with 12 samples.

Results

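A set of 50 genes of ribosome biogenesis and RNA polymerase I were followed in mouse splenic B cells. The set held 50 members of 17133 genes measured: 3 proteins of box C/D and 4 of box H/ACA small nucleolar ribonucleoproteins (snoRNPs), 4 multifunctional nucleolar proteins, 14 factors of small subunit assembly, 18 of large subunit assembly and 7 of RNA polymerase I. Members were chosen by gene name and not by a cut on their values, though earlier results of these data were known. A member was read on the probes that carry its name or an older symbol, and its brightest probe was used. The rule's own symbols found 42 members, and the other 8 (Dkc1, Rrp9, Rrp1b, Nop16, Mrto4, Polr1a, Polr1b and Polr1c) stood in the files under further older names and were matched by accession. All 50 were measured, 49 of them above background on all 12 arrays.

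The 4 groups were LPS-stimulated Ebf1 fl/fl-RERTCre cells, LPS-stimulated Ebf1 +/fl-RERTCre cells, resting fl/fl cells and resting +/fl cells, with 3 arrays each, all from C57BL/6 spleen. Every mouse carried the Cre and was given tamoxifen-citrate, 3 mg on each of 4 days, and was killed on day 10. The +/fl controls therefore also carry 1 floxed Ebf1 allele that the treatment can delete, and no group is free of Cre or tamoxifen. Mouse ages, the promoter that drives the Cre and the dose and length of the LPS treatment are not given in the labels. The labels name a gate on B220+AA4.1- cells and one that adds CD21lo without saying which arrays came from which. RNA of sorted cells was labelled with Cy3 and hybridised to 1-colour arrays, and values are log2 signals set against the 75th percentile of their own array. Nothing in the labels says that the 3 samples of a group came from separate mice, so the p-values speak only of the scatter among these samples, which may be technical.

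Ribosomes are built in the nucleolus. RNA polymerase I transcribes the long ribosomal RNA precursor there, snoRNPs guide methylation and pseudouridylation of that RNA, and large sets of assembly factors, helicases and GTPases fold it, cut it and join it to ribosomal proteins. B cells that leave rest under LPS, a bacterial cell wall product sensed by Toll-like receptor 4, grow in size before they divide, and the transcription factor Myc is a known activator of many of these genes.

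Some facts of the whole series bear on these genes. Ebf1, the transcription factor whose gene is floxed, was read by 2 probes that disagree at rest. The brighter probe read 1.81, 1.68 and 1.71 in resting fl/fl cells, against 0.75, 1.40 and 1.18 in resting +/fl cells, and the dimmer one read -4.21, -4.24 and -5.01, against -2.44, -2.18 and -3.16. In LPS cells the genotypes overlapped at both probes. The brighter one read 1.11, 1.29 and 1.22 in fl/fl cells, against 1.17, 1.01 and 1.07 in +/fl cells. The dimmer one read -4.38, -4.19 and -4.63, against -2.64, -4.71 and -3.08. Whether either probe lies in the floxed part is not given, so these probes do not settle the labels. On the array labelled LPS fl/fl 2, 83.2% of spots passed the test for signal well above background, and on the other 11 arrays 54.4% to 61.4% did. The B cell markers were present in every group: the summed level of 9 of them lay between 7.49 and 9.35 on the log2 scale. Resting +/fl arrays 1 and 3 read higher for myeloid, erythroid and dividing-cell markers than the third array of their group. The arrays lay on 3 slides of 4.

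The promoter windows of 6 members are shown because Rrp9, Heatr1 and Nop2 had the smallest p-values in the LPS response of +/fl cells, and Pes1, Tsr1 and Rrn3 hold an E-box and are named in the genotype comparisons. Each runs from 250 bases before to 50 after the gene's start in RefSeq (build GRCm38.p6), 5′ to 3′ on the gene's strand, in lower case, with motif matches in capitals.
Rrp9, chr9:106477059-106477358, plus strand, no match: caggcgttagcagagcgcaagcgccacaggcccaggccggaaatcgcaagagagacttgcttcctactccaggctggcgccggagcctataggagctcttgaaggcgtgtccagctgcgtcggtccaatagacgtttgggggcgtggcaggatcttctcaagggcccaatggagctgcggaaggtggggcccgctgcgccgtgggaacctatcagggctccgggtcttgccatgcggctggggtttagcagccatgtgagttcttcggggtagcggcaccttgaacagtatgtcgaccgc
Heatr1, chr13:12395125-12395424, plus strand, no match: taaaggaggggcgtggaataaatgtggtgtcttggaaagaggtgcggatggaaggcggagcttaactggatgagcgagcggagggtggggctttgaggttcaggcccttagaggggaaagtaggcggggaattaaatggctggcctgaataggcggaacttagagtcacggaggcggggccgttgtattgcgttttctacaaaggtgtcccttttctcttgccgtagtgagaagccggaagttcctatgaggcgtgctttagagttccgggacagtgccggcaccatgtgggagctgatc
Nop2, chr6:125131633-125131932, plus strand, E-box: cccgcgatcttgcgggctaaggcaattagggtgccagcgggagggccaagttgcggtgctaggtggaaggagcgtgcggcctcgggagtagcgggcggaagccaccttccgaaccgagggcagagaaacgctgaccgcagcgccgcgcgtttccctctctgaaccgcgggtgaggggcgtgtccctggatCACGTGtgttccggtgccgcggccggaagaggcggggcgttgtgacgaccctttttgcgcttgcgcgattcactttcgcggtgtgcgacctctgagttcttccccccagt
Pes1, chr11:3963725-3964024, plus strand, E-box: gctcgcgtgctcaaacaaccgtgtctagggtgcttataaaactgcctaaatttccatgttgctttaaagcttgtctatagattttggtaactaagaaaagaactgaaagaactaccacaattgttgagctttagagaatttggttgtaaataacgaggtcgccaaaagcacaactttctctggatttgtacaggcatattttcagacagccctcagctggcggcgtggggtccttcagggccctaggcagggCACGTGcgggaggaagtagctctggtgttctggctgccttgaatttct
Rrn3, chr16:13780449-13780748, plus strand, E-box at both sites in capitals: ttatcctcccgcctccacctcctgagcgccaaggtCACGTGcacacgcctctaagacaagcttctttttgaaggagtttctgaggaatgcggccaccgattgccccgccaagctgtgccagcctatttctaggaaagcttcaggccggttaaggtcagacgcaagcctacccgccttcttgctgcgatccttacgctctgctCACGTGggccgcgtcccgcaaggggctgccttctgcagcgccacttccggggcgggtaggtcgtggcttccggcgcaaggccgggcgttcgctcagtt
Tsr1, chr11:74897830-74898129, plus strand, TCGCGA and then E-box: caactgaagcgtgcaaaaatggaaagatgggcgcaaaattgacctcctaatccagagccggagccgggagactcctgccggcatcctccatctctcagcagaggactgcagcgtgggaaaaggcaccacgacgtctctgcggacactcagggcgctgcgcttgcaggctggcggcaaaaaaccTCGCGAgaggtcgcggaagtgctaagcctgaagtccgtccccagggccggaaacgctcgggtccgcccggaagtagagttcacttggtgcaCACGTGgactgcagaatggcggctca
RefSeq windows were at hand for 44 of the 50 members, and not for Npm1, Fbl, Tcof1, Bop1, Gnl2 and Rrs1. CACGTG, the E-box that Myc with Max can bind, stood in the windows of 6 of 44 members (13.6%), which were Imp4, Nop2, Pes1, Rrn3, Tsr1 and Wdr43, and in 8.09% of 27025 genes. In Nop2 it began 60 bases before the start, and in Rrn3 it began 215 and 48 bases before it. TCGCGA was found in 3 of 44 members (6.82%), Nop58, Polr1c and Tsr1, against 2.86% of genes. The Ebf1 consensus, TCCC and GGGA with any pair of bases between them, was found in 0 of 44 members and in 1.06% of genes. These motifs read the same on both strands and do not overlap one another, a match is a description of letters, and its absence says only that the letters are not in that window.

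Nearly the whole set read higher in LPS cells than in resting cells in both genotypes. In fl/fl cells 46 of 50 members were higher after LPS and 0 were lower at an adjusted p under 0.05, where 29.9% of all genes were called higher and 25.7% lower. In +/fl cells 48 of 50 were higher and 0 lower, where 30.4% of all genes were called higher and 27.4% lower. The median member rose 4.25-fold in fl/fl cells (log2 difference 2.09, against 0.06 over all genes) and 4.47-fold in +/fl cells (2.16, against -0.03). At least 4-fold increases were called for 29 members in fl/fl cells and 30 in +/fl cells, against 5.49% and 4.31% of all genes. The members not called were Imp3, Ddx52, Ubtf and Tcof1 in fl/fl cells and Imp4 and Ddx52 in +/fl cells, and 45 members were called in both. No member had a value below 0 in either genotype. For 47 members all 6 LPS arrays lay above all 6 resting arrays, which held for 24.1% of genes. Values are relative to each array's own 75th percentile, and in RNA of bulk cells a change in the mix of cells cannot be told apart from a change in RNA per cell. The gate of each array is not given, so a difference of gate cannot be told apart from LPS either. The B cell markers went the other way, with 6 of 9 lower after LPS in each genotype. In fl/fl cells 4 of 15 myeloid markers were higher and 5 lower, 2 of 10 erythroid markers were lower, and of 9 T cell markers 1 was higher and 2 lower (medians -0.53, -0.65 and -0.04). In +/fl cells 9 myeloid, 6 erythroid and 4 T cell markers were lower and 0 higher (medians -1.61, -2.19 and -0.84). The summed level of the myeloid markers was 5.96 to 6.88 in LPS fl/fl cells and 5.22 to 6.91 in LPS +/fl cells, against 4.79 to 5.61 in resting fl/fl cells and 5.33 to 7.49 in resting +/fl cells. The part of such shifts in the result was not tested.

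**Figure D1:**
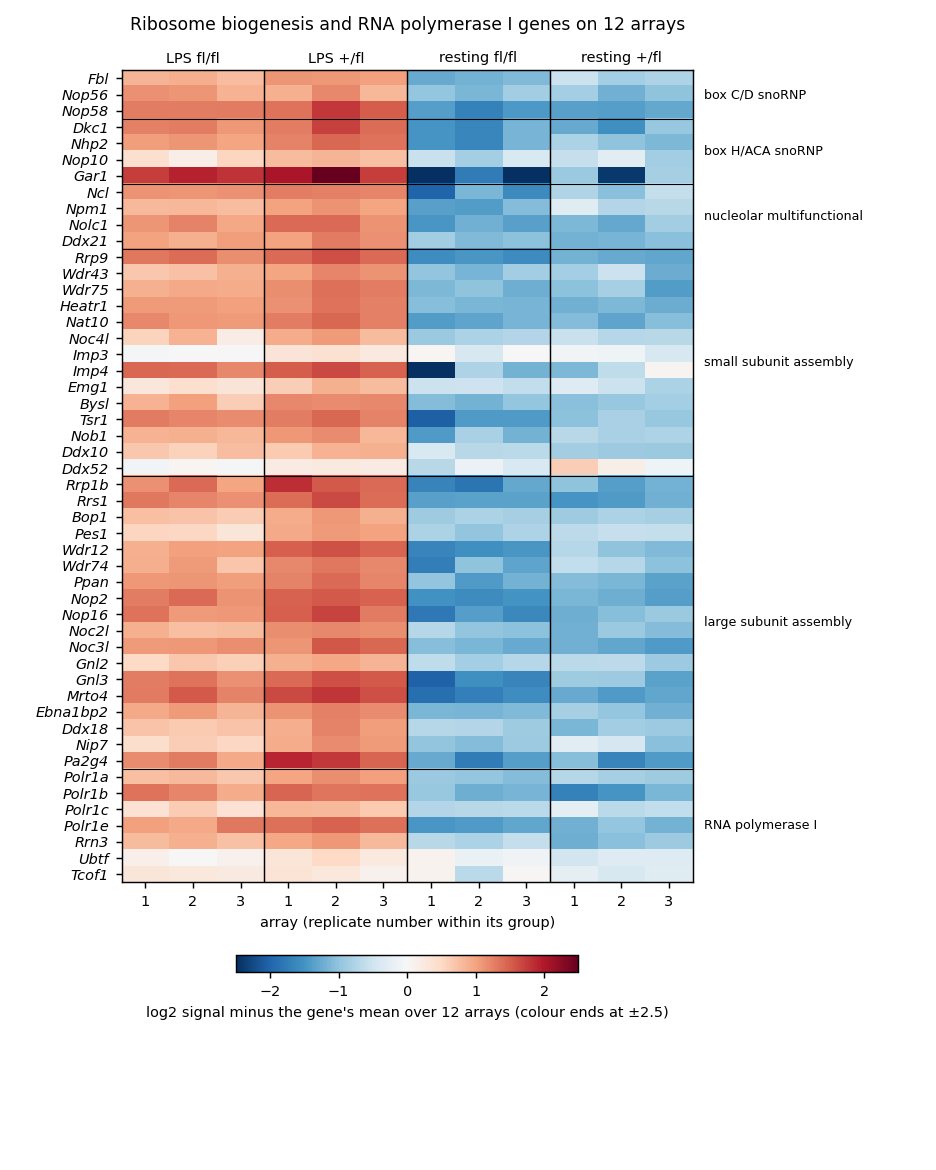
Colours show the log2 signal of each of the 50 genes (rows, grouped by role) on each of the 12 arrays (columns), after subtraction of the gene's mean over the 12 arrays, with red above and blue below that mean. The 6 LPS arrays on the left are red and the 6 resting arrays on the right blue for 47 genes without overlap, while the arrays of Imp3, Ddx52 and Ubtf overlap.

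All 3 box C/D snoRNP proteins rose in both genotypes. Nop58, a scaffold protein of these particles, had the smallest p of the group in both LPS responses. It read 5.91, 5.91 and 5.93 in LPS fl/fl cells and 5.99, 6.40 and 6.15 in LPS +/fl cells, against 3.25, 2.94 and 3.18 in resting fl/fl cells and 3.27, 3.25 and 3.35 in resting +/fl cells. The LPS and resting arrays were well apart, with log2 differences of 2.79 ± 0.12 (SE, n = 3 and 3, adjusted p = 1.25e-07 with limma) in fl/fl cells and 2.89 ± 0.12 in +/fl cells. Fbl, the methyltransferase fibrillarin, read 7.98, 8.02 and 7.89 in LPS fl/fl cells and 8.22, 8.19 and 8.15 in LPS +/fl cells, against 5.86, 5.93 and 6.01 in resting fl/fl cells and 6.58, 6.26 and 6.35 in resting +/fl cells. Its LPS response was 2.03 ± 0.10 in fl/fl cells and 1.79 ± 0.10 in +/fl cells. Nop56, the partner scaffold of Nop58, read 6.99, 6.95 and 6.74 in LPS fl/fl cells and 6.74, 7.05 and 6.69 in LPS +/fl cells, against 4.90, 4.73 and 4.99 in resting fl/fl cells and 5.02, 4.66 and 4.85 in resting +/fl cells. For Nop56 the genotypes overlapped in both conditions, and its LPS response was 2.02 ± 0.14 in fl/fl cells and 1.99 ± 0.14 in +/fl cells.

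The 4 box H/ACA proteins, which pseudouridylate ribosomal RNA, also rose in both genotypes. Gar1, a core protein, had the largest response of all members in both genotypes. Its signal was 3.63, 3.83 and 3.70 in LPS fl/fl cells and 3.93, 4.39 and 3.62 in LPS +/fl cells, against -1.25, 0.16 and -0.74 in resting fl/fl cells and 0.97, -0.50 and 1.07 in resting +/fl cells. The resting arrays scattered widely, and the difference was 4.33 ± 0.45 in fl/fl cells (adjusted p = 2.12e-05 with limma) and 3.47 ± 0.45 in +/fl cells. Nhp2, a core RNA-binding protein, stood at 5.86, 5.92 and 5.81 in LPS fl/fl cells and 6.06, 6.26 and 6.16 in LPS +/fl cells, against 3.34, 3.18 and 3.65 in resting fl/fl cells and 4.03, 3.82 and 3.70 in resting +/fl cells. Its response was 2.47 ± 0.14 in fl/fl cells and 2.31 ± 0.14 in +/fl cells, the smallest p of the group in both. Dkc1, the pseudouridine synthase dyskerin, rose by 2.63 ± 0.18 and 2.71 ± 0.18. Nop10, the smallest response of the group, read 5.78, 5.54 and 5.91 in LPS fl/fl cells and 6.18, 6.23 and 6.13 in LPS +/fl cells, against 4.82, 4.52 and 4.99 in resting fl/fl cells and 4.81, 5.11 and 4.51 in resting +/fl cells. Nop10 rose by 0.97 ± 0.17 in fl/fl cells and 1.37 ± 0.17 in +/fl cells.

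Ncl, Npm1, Nolc1 and Ddx21, which chaperone or remodel nucleolar RNA and protein, all rose after LPS in both genotypes. Ddx21, an RNA helicase, read 3.83, 3.71 and 3.86 in LPS fl/fl cells and 3.83, 4.11 and 3.96 in LPS +/fl cells, against 1.95, 1.71 and 1.79 in resting fl/fl cells and 1.64, 1.66 and 1.78 in resting +/fl cells. It had the smallest p of the 4 in both responses, 1.98 ± 0.11 in fl/fl cells and 2.27 ± 0.11 in +/fl cells. Ncl, nucleolin, read 8.05, 8.03 and 8.06 in LPS fl/fl cells and 8.20, 8.18 and 8.15 in LPS +/fl cells, against 4.93, 5.78 and 5.33 in resting fl/fl cells and 6.16, 5.88 and 6.32 in resting +/fl cells. The LPS arrays of Ncl lay close together while its resting fl/fl arrays spread widely, and the response was 2.70 ± 0.19 in fl/fl cells and 2.05 ± 0.19 in +/fl cells. Npm1, the histone and ribosome chaperone nucleophosmin, read 7.40, 7.42 and 7.36 in LPS fl/fl cells and 7.60, 7.71 and 7.58 in LPS +/fl cells, against 5.24, 5.19 and 5.50 in resting fl/fl cells and 6.29, 5.86 and 5.90 in resting +/fl cells. Its response was 2.08 ± 0.13 in fl/fl cells and 1.61 ± 0.13 in +/fl cells. Nolc1, which binds snoRNPs, rose by 2.44 ± 0.14 and 2.41 ± 0.14.

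Of the 14 small subunit factors, 12 were higher after LPS in fl/fl cells and 12 in +/fl cells, and the exceptions differed. Rrp9, a protein of the U3 snoRNP, had the smallest p of all members in fl/fl cells. It read 3.80, 3.87 and 3.65 in LPS fl/fl cells and 3.89, 4.09 and 3.91 in LPS +/fl cells, against 0.93, 1.03 and 0.91 in resting fl/fl cells and 1.31, 1.23 and 1.18 in resting +/fl cells. All LPS arrays of Rrp9 lay far above all resting ones, with 2.82 ± 0.10 in fl/fl cells (adjusted p = 4.86e-08 with limma) and 2.72 ± 0.10 in +/fl cells. Heatr1, which works in early processing and in transcription by RNA polymerase I, had the smallest p of all members in +/fl cells. Heatr1 stood at 4.69, 4.68 and 4.65 in LPS fl/fl cells and 4.77, 4.98 and 4.88 in LPS +/fl cells, against 2.55, 2.48 and 2.47 in resting fl/fl cells and 2.42, 2.50 and 2.38 in resting +/fl cells. Its response was 2.17 ± 0.09 in fl/fl cells and 2.44 ± 0.09 in +/fl cells (adjusted p = 4.67e-08 with limma). Tsr1, a late factor of the small subunit, read 3.70, 3.62 and 3.59 in LPS fl/fl cells and 3.68, 3.85 and 3.64 in LPS +/fl cells, against 0.37, 0.99 and 0.98 in resting fl/fl cells and 1.39, 1.60 and 1.47 in resting +/fl cells. Tsr1 rose by 2.86 ± 0.16 in fl/fl cells and 2.24 ± 0.16 in +/fl cells, and its genotypes overlapped after LPS and not at rest.

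Imp3, Imp4 and Ddx52 were the small subunit factors with a missed call. Imp3, a partner of the U3 snoRNA, read 3.99, 4.04 and 4.05 in LPS fl/fl cells and 4.36, 4.42 and 4.28 in LPS +/fl cells, against 4.09, 3.64 and 4.05 in resting fl/fl cells and 3.96, 3.94 and 3.64 in resting +/fl cells. The fl/fl arrays overlapped (0.10 ± 0.14, the smallest value of any member in fl/fl cells), while the +/fl arrays did not (0.51 ± 0.14, adjusted p = 0.00936 with limma). Ddx52, an RNA helicase, read 0.45, 0.56 and 0.48 in LPS fl/fl cells and 0.73, 0.77 and 0.72 in LPS +/fl cells, against -0.17, 0.38 and 0.14 in resting fl/fl cells and 1.13, 0.67 and 0.42 in resting +/fl cells. Its difference was 0.38 ± 0.18 in fl/fl cells and 0.00 ± 0.18 in +/fl cells, the smallest value there. Imp4, another U3-bound factor, read -0.28, -0.30 and -0.52 in LPS fl/fl cells and -0.20, -0.06 and -0.24 in LPS +/fl cells, against -6.75, -2.48 and -2.89 in resting fl/fl cells and -2.85, -2.35 and -1.64 in resting +/fl cells. The lowest of these, on resting fl/fl array 1, was not well above background, and with it the response was 3.67 ± 0.90 in fl/fl cells (adjusted p = 0.00587) and 2.11 ± 0.90 in +/fl cells (adjusted p = 0.0693). Without that array it was 2.32 ± 0.30 in fl/fl cells (adjusted p = 0.000208) and 2.11 ± 0.27 in +/fl cells (adjusted p = 0.000142), and both responses were then called. Emg1, a methyltransferase of the small subunit RNA, had the lowest called response of the group in fl/fl cells. It read 4.59, 4.74 and 4.64 in LPS fl/fl cells and 4.93, 5.20 and 5.10 in LPS +/fl cells, against 3.78, 3.79 and 3.69 in resting fl/fl cells and 3.98, 3.77 and 3.51 in resting +/fl cells, a response of 0.90 ± 0.13 in fl/fl cells and 1.32 ± 0.13 in +/fl cells. The remaining members of the group, the processome proteins Wdr43, Wdr75 and Noc4l, the RNA acetyltransferase Nat10, the assembly factors Bysl and Nob1 and the helicase Ddx10, rose by 1.25 (Ddx10) to 2.40 (Nat10) in fl/fl cells and by 1.58 (Noc4l) to 2.48 (Nat10) in +/fl cells.

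All 18 large subunit factors were called higher after LPS in both genotypes, each by at least 2-fold, which held for 16.5% of all genes in fl/fl cells and 15.8% in +/fl cells. Nop2, a ribosomal RNA methyltransferase whose window is printed above, had the smallest p of the group. Its arrays read 6.01, 6.14 and 5.86 in LPS fl/fl cells and 6.19, 6.27 and 6.19 in LPS +/fl cells, against 3.21, 3.16 and 3.24 in resting fl/fl cells and 3.58, 3.50 and 3.35 in resting +/fl cells. No LPS array came near a resting one, and the difference was 2.80 ± 0.10 in fl/fl cells and 2.74 ± 0.10 in +/fl cells. Pa2g4, a nucleolar growth-regulated protein, read 3.43, 3.56 and 3.21 in LPS fl/fl cells and 4.16, 4.03 and 3.71 in LPS +/fl cells, against 0.99, 0.51 and 0.87 in resting fl/fl cells and 1.19, 0.61 and 0.84 in resting +/fl cells. The genotypes of Pa2g4 were apart after LPS and overlapped at rest, with a response of 2.61 ± 0.19 in fl/fl cells and 3.09 ± 0.19 in +/fl cells. Mrto4, an assembly factor related to a protein of the ribosomal stalk, had the largest response of the group in fl/fl cells (3.08 ± 0.12, with 3.01 ± 0.12 in +/fl cells). The nucleolar GTPase Gnl3 rose by 2.99 ± 0.16 in fl/fl cells and 2.56 ± 0.16 in +/fl cells, and its relative Gnl2 by 1.33 ± 0.11 and 1.64 ± 0.11. The 3 proteins of the PeBoW complex, which is needed for large subunit RNA processing, all rose: Pes1 by 1.30 ± 0.10 in fl/fl cells and 1.62 ± 0.10 in +/fl cells, Bop1 by 1.54 ± 0.09 and 1.81 ± 0.09, and Wdr12 by 2.52 ± 0.12 and 2.46 ± 0.12. The other 10, which include the helicase Ddx18, the assembly factors Rrs1, Ppan and Nip7 and the Noc proteins Noc2l and Noc3l, rose by 1.47 (Ddx18) to 2.77 (Rrp1b) in fl/fl cells. Rrp1b is an exception between probes: a further probe gave -0.48 in fl/fl cells and -0.04 in +/fl cells, and no other member with several probes had signs that differ in an LPS response.

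Of the 7 RNA polymerase I genes, 5 rose after LPS in fl/fl cells and 7 in +/fl cells. Polr1e, a polymerase-associated subunit, had the smallest p of the group in both. It read 2.58, 2.51 and 2.87 in LPS fl/fl cells and 2.93, 3.02 and 2.94 in LPS +/fl cells, against 0.10, 0.13 and 0.25 in resting fl/fl cells and 0.34, 0.58 and 0.36 in resting +/fl cells, a response of 2.49 ± 0.12 and 2.53 ± 0.12. Polr1a, the largest subunit, read 4.30, 4.35 and 4.22 in LPS fl/fl cells and 4.52, 4.70 and 4.56 in LPS +/fl cells, against 2.61, 2.56 and 2.46 in resting fl/fl cells and 2.81, 2.71 and 2.64 in resting +/fl cells. Its arrays separated by condition and, within each condition, by genotype, with a response of 1.74 ± 0.09 in fl/fl cells and 1.87 ± 0.09 in +/fl cells. Polr1b, which forms the catalytic core with Polr1a, read 2.60, 2.47 and 2.18 in LPS fl/fl cells and 2.70, 2.59 and 2.61 in LPS +/fl cells, against 0.31, 0.03 and 0.08 in resting fl/fl cells and -0.44, -0.23 and 0.11 in resting +/fl cells. Its response was 2.28 ± 0.16 in fl/fl cells and 2.82 ± 0.16 in +/fl cells, with overlapping genotypes in both conditions. Polr1c, a subunit shared with RNA polymerase III, read 5.07, 5.34 and 5.07 in LPS fl/fl cells and 5.54, 5.53 and 5.37 in LPS +/fl cells, against 3.98, 4.01 and 4.03 in resting fl/fl cells and 4.46, 4.05 and 4.09 in resting +/fl cells, a response of 1.15 ± 0.13 and 1.28 ± 0.13.

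Rrn3, Ubtf and Tcof1 act with the polymerase at ribosomal DNA. Rrn3, the initiation factor that makes the polymerase competent, read 2.68, 2.78 and 2.62 in LPS fl/fl cells and 2.86, 2.97 and 2.69 in LPS +/fl cells, against 1.19, 1.10 and 1.29 in resting fl/fl cells and 0.66, 0.83 and 0.98 in resting +/fl cells. Its response was 1.50 ± 0.12 in fl/fl cells and 2.02 ± 0.12 in +/fl cells, and a second Rrn3 probe gave 0.75 and 0.42. Ubtf, the upstream binding factor that coats active ribosomal DNA, read 4.69, 4.57 and 4.66 in LPS fl/fl cells and 4.86, 5.07 and 4.80 in LPS +/fl cells, against 4.65, 4.40 and 4.47 in resting fl/fl cells and 4.11, 4.23 and 4.24 in resting +/fl cells. The fl/fl arrays overlapped between conditions (0.13 ± 0.11, adjusted p = 0.327), while all +/fl arrays were higher after LPS (0.71 ± 0.11, adjusted p = 0.000239 with limma). Tcof1, treacle, which aids transcription of ribosomal DNA, read 4.38, 4.34 and 4.30 in LPS fl/fl cells and 4.42, 4.34 and 4.19 in LPS +/fl cells, against 4.17, 3.41 and 4.11 in resting fl/fl cells and 3.83, 3.68 and 3.78 in resting +/fl cells. The arrays did not overlap in either genotype, and the difference was 0.44 ± 0.18 in fl/fl cells (adjusted p = 0.0596) and 0.55 ± 0.18 in +/fl cells (adjusted p = 0.0234), a call kept in 17 of 28 alternatives.

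**Figure D2:**
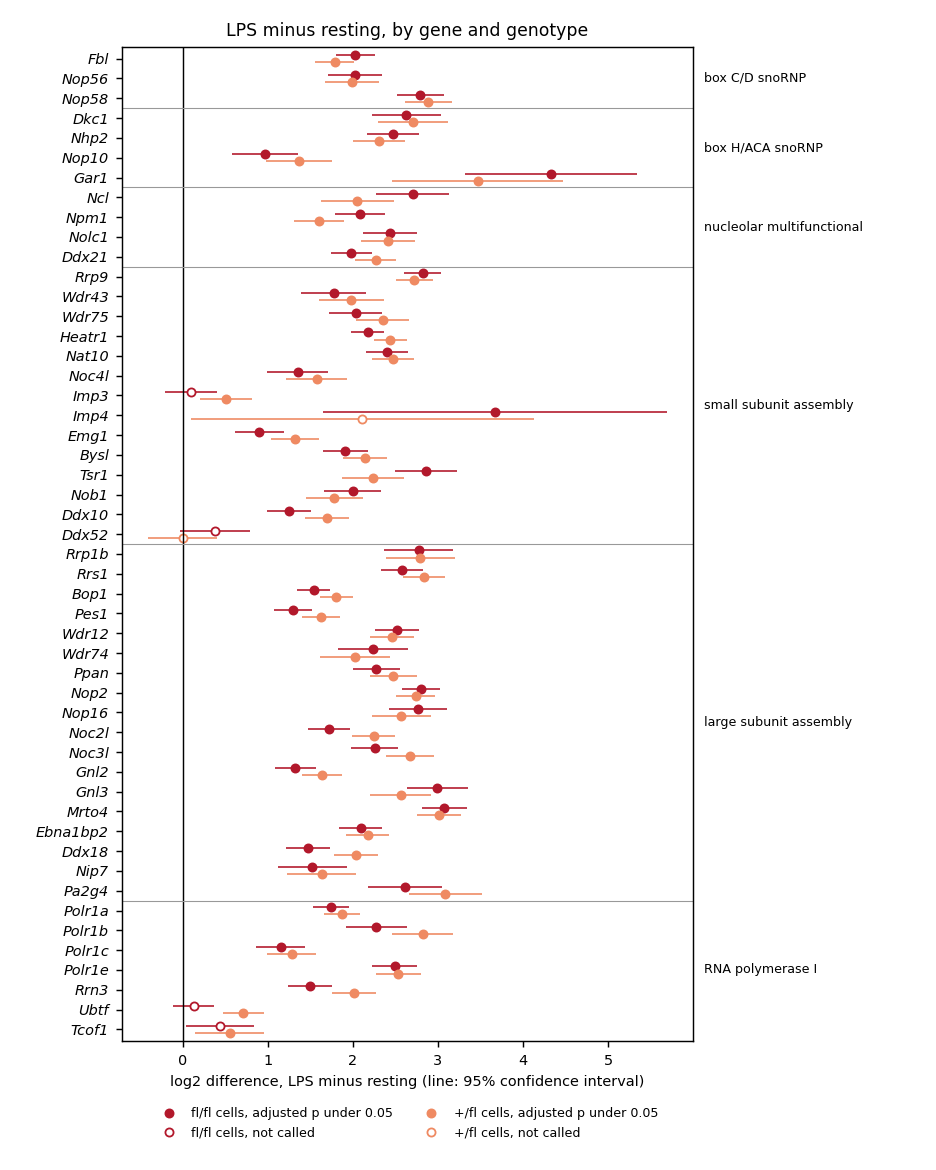
Points show the log2 difference between LPS and resting cells for each gene (rows, grouped by role), in fl/fl cells (dark red, upper point of each row) and +/fl cells (orange, lower point), with 95% confidence intervals and open points where the adjusted p was not under 0.05. Most genes lie between 1 and 3 in both genotypes, and Imp3, Ddx52, Ubtf and Tcof1 lie nearest to 0.

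Other genes of the pathway, not members, moved with them. Of 107 measured genes of a list of 108 further ribosome biogenesis genes, 98 were higher and 2 lower after LPS in fl/fl cells, and 101 higher and 2 lower in +/fl cells. Their medians were 1.46 and 1.73. Wdr46 and Pno1, assembly factors of the small subunit, rose by 2.47 ± 0.09 and 2.61 ± 0.10 in fl/fl cells and by 2.62 ± 0.09 and 2.69 ± 0.10 in +/fl cells. Rcl1, a processing factor, rose by 2.49 ± 0.11 in fl/fl cells, and Nol6, a nucleolar processing protein, by 2.29 ± 0.09 in +/fl cells. The 2 that fell were Nop53 (-0.50 ± 0.14 in fl/fl cells and -0.85 ± 0.14 in +/fl cells) and Nsa2 (-0.33 ± 0.12 and -0.43 ± 0.12), both factors of the large subunit. Of 11 measured further RNA polymerase I genes out of 14, 10 were higher in fl/fl cells and 9 in +/fl cells. The shared polymerase subunits Polr2f and Polr2l rose by 1.60 ± 0.11 and 1.23 ± 0.13 in fl/fl cells and by 2.09 ± 0.11 and 1.80 ± 0.13 in +/fl cells. Polr2h rose by 2.25 ± 0.20 in fl/fl cells, and Polr2e by 1.21 ± 0.12 in +/fl cells.

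Myc and the proteins that compete for its partner Max were read beside them. Myc read 5.51, 5.94 and 5.78 in LPS fl/fl cells and 6.11, 6.21 and 6.01 in LPS +/fl cells, against 2.72, 2.22 and 2.22 in resting fl/fl cells and 3.11, 3.29 and 3.42 in resting +/fl cells. Its arrays separated by condition and by genotype within each condition, with a response of 3.36 ± 0.17 in fl/fl cells and 2.84 ± 0.17 in +/fl cells. Mxd4, a Max-binding repressor, fell after LPS (-3.66 ± 0.16 in fl/fl cells and -4.21 ± 0.16 in +/fl cells). Mnt, another Max-binding repressor, changed by -1.03 ± 0.11 in fl/fl cells and -0.54 ± 0.11 in +/fl cells, and Mxd1, of the same family, by -0.60 ± 0.15 in fl/fl cells and -0.93 ± 0.15 in +/fl cells. Mxd3, also a Max-binding repressor, fell in +/fl cells (-2.76 ± 0.54, adjusted p = 0.00145 with limma), and its value in fl/fl cells was -0.69 ± 0.54 (adjusted p = 0.312 with limma). It read -4.12, -4.59 and -4.46 in LPS +/fl cells, against -1.24, -2.76 and -0.90 in resting +/fl cells.

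At rest, fl/fl cells read lower than +/fl cells for a few members. The test called 6 of 50 members lower (Npm1, Wdr12, Fbl, Tsr1, Gnl3 and Ncl) and 0 higher, where 4.18% of all genes were called lower and 4.63% higher. The median member differed by -0.17, against 0.05 over all genes (-0.21 to -0.09 for members over the alternatives tried), and 35 members were below 0, against 44.9% of all genes. At an unadjusted p under 0.05 there were 21 members in either direction, against 27.7% of all genes. The arrays of the genotypes did not overlap, with fl/fl lower, for 18 members, against 12.6% of all genes, and with fl/fl higher for 3 (Rrn3, Ubtf and Ddx10), against 18.7% of all genes. By role, the calls were 1 of 3 box C/D proteins, 0 of 4 box H/ACA proteins, 2 of 4 nucleolar multifunctional proteins, 1 of 14 small subunit factors, 2 of 18 large subunit factors and 0 of 7 RNA polymerase I genes (for these with limma, 2 box H/ACA and 3 RNA polymerase I genes had an unadjusted p under 0.05). The count rests on single arrays: it was 1 without resting fl/fl array 1, 2 without resting +/fl array 1 and 3 without LPS fl/fl array 1. Over all genes the lower calls were then 297, 306 and 459 in the same order, against 716 with all arrays.

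Npm1 had the smallest p. Its 3 resting fl/fl arrays, given above, all lay below the 3 resting +/fl arrays, and the log2 difference was -0.71 ± 0.13 (adjusted p = 0.0149 with limma), with -0.65 ± 0.15 at its other probe. Wdr12, of the PeBoW complex, read 0.72, 0.83 and 0.92 in resting fl/fl cells, against 1.65, 1.37 and 1.26 in resting +/fl cells. No Wdr12 array overlapped (-0.60 ± 0.12, adjusted p = 0.017), and its other probes gave -0.17 and -0.43. Fbl differed by -0.46 ± 0.10 (adjusted p = 0.0271) and Tsr1 by -0.71 ± 0.16 (adjusted p = 0.0308), both without overlap. Gnl3 differed by -0.69 ± 0.16 (adjusted p = 0.0328). Ncl differed by -0.78 ± 0.19 (adjusted p = 0.0368), but its 4 probes disagree: 2 gave -0.78 and -0.81 and the others -0.20 and 0.06. Each of the 3 slides held 1 resting array of either genotype. Where the genotypes do not overlap the sign within a slide is already fixed, so the within-slide differences give sizes only. They were -0.63, -1.10 and -0.40 for Npm1, -0.65, -0.82 and -0.34 for Wdr12, and -0.41, -0.65 and -0.34 for Fbl.

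Among the other roles, Nhp2 differed by -0.46 ± 0.14 (adjusted p = 0.0645) and Imp4, which had the lowest value of all members, by -1.76 ± 0.90 (adjusted p = 0.235), or by -0.41 ± 0.30 without the array on which it was not well above background. Rrn3 had the highest value of all members, 0.37 ± 0.12 (adjusted p = 0.0753), and its 3 resting fl/fl arrays lay above the 3 resting +/fl arrays. The RNA polymerase I genes had a median of 0.13. Of the further ribosome biogenesis genes, 3 of 107 were lower, where 4.18% of all genes were called lower. The list's median was -0.04, with 58 genes below 0 and 49 above. Those called were Rsl1d1 (-0.68 ± 0.14), a nucleolar protein, Exosc8 (-0.62 ± 0.14), a subunit of the RNA exosome, and Nmd3 (-0.45 ± 0.12), an export adaptor of the large subunit. Taf1a, a subunit of the promoter selectivity factor of RNA polymerase I, was higher (0.45 ± 0.11, adjusted p = 0.0388). Myc was lower in resting fl/fl cells (-0.89 ± 0.17, adjusted p = 0.0155), as was the Max-binding repressor Mxd3 (-2.64 ± 0.54, adjusted p = 0.0211). Mxd3 read -4.59, -4.58 and -3.65 in resting fl/fl cells, against -1.24, -2.76 and -0.90 in resting +/fl cells. Its highest readings were on resting +/fl arrays 1 and 3, where dividing-cell markers were also high.

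Other lists moved with this comparison. In resting fl/fl cells 12 of 24 cell cycle genes were lower than in +/fl cells, and their summed log2 level was 6.98 to 7.09 in resting fl/fl cells, against 7.34 to 7.77 in resting +/fl cells. The summed level of 15 myeloid markers was 4.79 to 5.61 in resting fl/fl cells, against 5.33 to 7.49 in resting +/fl cells, with 1 marker called lower. That of 10 erythroid markers was 3.01 to 6.63, against 5.11 to 6.26, with 0 called at an adjusted p and 0 at an unadjusted p under 0.05 with limma. That of 5 plasma cell markers was 3.43 to 4.35, against 5.28 to 6.08, with Mzb1 lower. That of 9 B cell markers was 8.84 to 9.04, against up to 9.35 with overlap: 3 were called lower and 0 higher, 6 were below 0 and 3 above, and the differences ran between -2.46 and 0.83, with 1 marker higher without overlap. Of 9 T cell markers 0 were called and all 9 were below 0 (median -0.47). The 24 cell cycle genes, 15 myeloid markers and 10 erythroid markers were also all below 0 (medians -1.58, -1.17 and -1.60). Of 5 plasma cell markers 4 were below 0 (median -1.46). The part of these lists in the result was not tested. Without resting +/fl arrays 1 and 3, where the dividing-cell and myeloid markers were high, 0 of 50 members were called and the 6 genes differed by -0.33 (Fbl) to -0.82 (Gnl3 and Tsr1), with 1 control array left and its spread taken from the other groups.

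**Figure D3:**
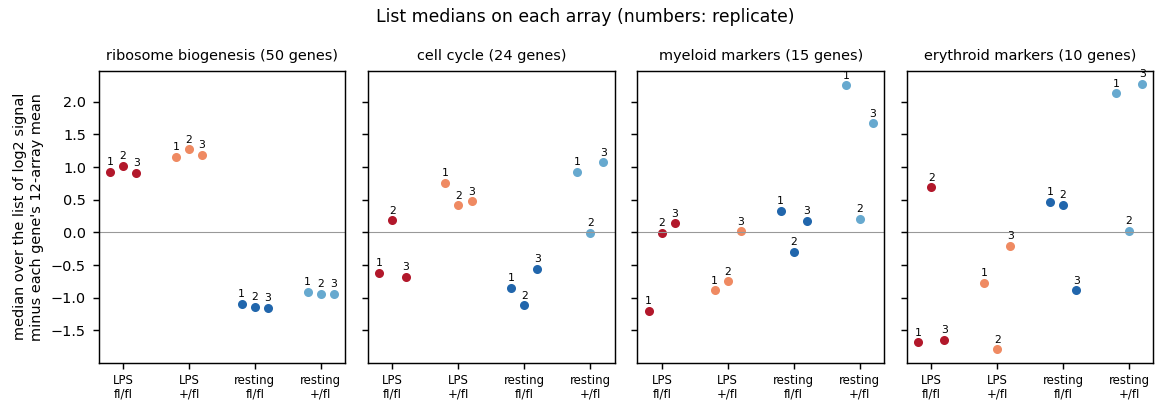
Each point is the median over a gene list, on 1 array, of the log2 signal minus the gene's mean over the 12 arrays, for the ribosome biogenesis and RNA polymerase I genes and for cell cycle, myeloid and erythroid marker lists, with replicate numbers above the points. The ribosome biogenesis medians lie at 0.91 to 1.27 in LPS cells, against -1.15 to -0.91 in resting cells, while resting +/fl arrays 1 and 3 stand high in the other 3 lists.

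After LPS the difference between genotypes was small and spread over the set. The test called 1 of 50 members lower in fl/fl cells (Pes1) and 0 higher, where 0.805% of all genes were called lower and 0.887% higher. At an unadjusted p under 0.05 there were 21 of 50 members, against 21.5% of all genes. The median member differed by -0.26, against 0.04 over all genes, and 48 members were below 0, against 46% of all genes. The size of this difference depends on the scaling: the median was -0.15 after quantile normalization and -0.79 after median scaling (where all genes moved to -0.48). Both kept the direction, which turned with normexp background correction as run (0.17, with -0.12 over all genes). That setting called 0 of 17133 genes higher and 0 lower in this comparison. The genotypes did not overlap, with fl/fl lower, for 37 members, against 18.1% of all genes, and Nop56 and Tcof1 were the members above 0. Slide 2 held 1 LPS array of each genotype, and between them the median was -0.26, with 47 members lower. For the 37 members without overlap that sign was already fixed, so this pair gives sizes only.

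Pes1 read 4.99, 4.97 and 4.77 in LPS fl/fl cells, against 5.41, 5.53 and 5.46 in LPS +/fl cells. All 3 LPS fl/fl arrays were below the others, 1.47-fold lower on average (log2 difference -0.56 ± 0.10, adjusted p = 0.0346 with limma), with -0.48 ± 0.14 at its other probe. The call was lost when any of the 6 LPS arrays, or resting fl/fl array 3, was left out. It was also lost with slide as a fixed block (-0.58, adjusted p = 0.099 with limma), where all genes gave 2 calls higher and 3 lower, against 152 and 138 without the block. LPS fl/fl arrays 1 and 2 lay on slide 3 and array 3 on slide 2, whereas LPS +/fl array 1 lay on slide 2 and arrays 2 and 3 on slide 1, so slide and genotype can hardly be told apart after LPS. Its partner Wdr12 read 3.26, 3.39 and 3.37 in LPS fl/fl cells, against 3.87, 3.96 and 3.82 in LPS +/fl cells, without overlap (-0.54 ± 0.12, adjusted p = 0.0514). Pa2g4 had the lowest value of all members (-0.56 ± 0.19, adjusted p = 0.145) and Nop56 the highest (0.06 ± 0.14). The smallest p of the other roles belonged to Fbl (-0.22 ± 0.10, adjusted p = 0.241), Nop10 (-0.43 ± 0.17, adjusted p = 0.19), Npm1 (-0.24 ± 0.13, adjusted p = 0.319), Emg1 (-0.42 ± 0.13, adjusted p = 0.114) and Polr1a (-0.31 ± 0.09, adjusted p = 0.115), each with all 3 fl/fl arrays below the +/fl arrays. Of the further ribosome biogenesis genes 0 of 107 were called, with 37 at an unadjusted p under 0.05 with limma, 105 were below 0 and the median was -0.23. Beside this, 4 of 24 cell cycle genes were lower in LPS fl/fl cells (summed log2 level 7.34 to 7.50, against 7.80 to 7.97 in LPS +/fl cells), as were 2 of 9 B cell markers (7.49 to 7.81, against 8.01 to 8.03). Mzb1 was lower among 5 plasma cell markers, and 0 of the myeloid, T cell and erythroid markers were called (erythroid median 0.11). Of 15 myeloid markers 14 were above 0 and 5 were higher without overlap (median 0.73, summed level 5.96 to 6.88 in LPS fl/fl cells, against 5.22 to 6.91 in LPS +/fl cells). Of 9 T cell markers 8 were above 0 and 5 were higher without overlap (median 0.54, summed level 3.75 to 4.08, against 3.27 to 3.54). Of all 17133 genes, 2614 were higher without overlap in this comparison. The part of these lists in the result was not tested.

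**Figure D4:**
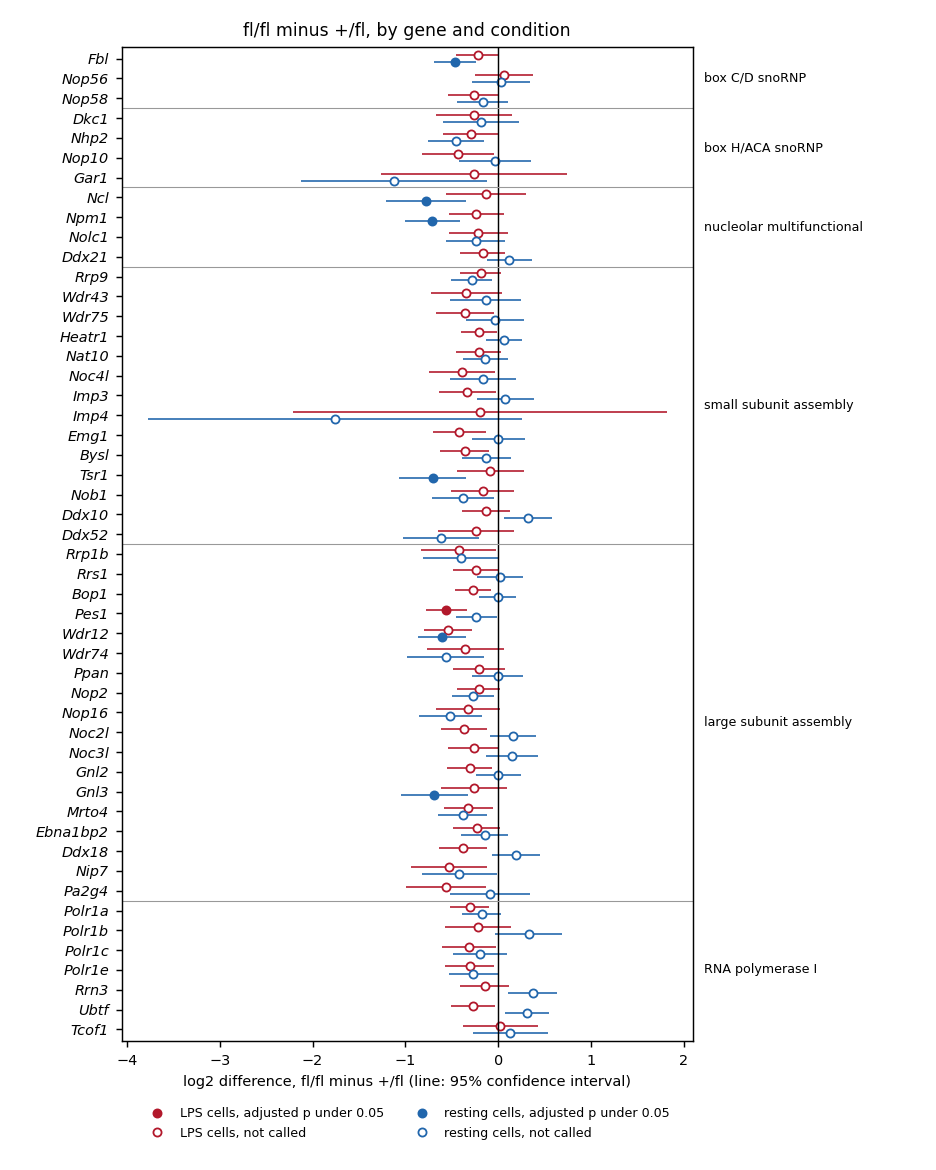
Points show the log2 difference between fl/fl and +/fl cells for each gene (rows, grouped by role), in LPS cells (red, upper point of each row) and resting cells (blue, lower point), with 95% confidence intervals and filled points where the adjusted p was under 0.05. The LPS points lie just left of 0 for 48 genes, and the resting points scatter on both sides with 6 filled points on the left.

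The size of the LPS response was then compared between genotypes. The interaction called 0 of 50 members with limma, against 0.175% of all genes, and 12 members had an unadjusted p under 0.05, against 20.3% of all genes. The median difference of the responses was -0.11 (fl/fl minus +/fl), and it turned to 0.08 after quantile normalization. The 95% confidence intervals had a median half-width of 0.407, and for 44 members the interval lay within 1 log2 unit of 0 on both sides, so differences of response larger than 2-fold lie outside those intervals. The 6 genes called at rest had larger responses in fl/fl cells, from 0.06 ± 0.16 (Wdr12) to 0.65 ± 0.27 (Ncl), with no adjusted p under 0.05. The comparisons share their arrays, so a low resting fl/fl value enters both.

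Ubtf was the member with the lowest adjusted p, 0.106, for a difference of -0.58 ± 0.15. Its fl/fl arrays lay above the +/fl arrays at rest (0.31 ± 0.11, adjusted p = 0.0935) and below them after LPS (-0.27 ± 0.11, adjusted p = 0.186), without overlap in either. Of all genes, 18.7% were higher without overlap in fl/fl cells at rest and 18.1% lower without overlap after LPS. Its second probe gave 0.32 ± 0.12 at rest and -0.32 ± 0.12 after LPS. None of these Ubtf differences between genotypes passed the threshold.

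**Figure D5:**
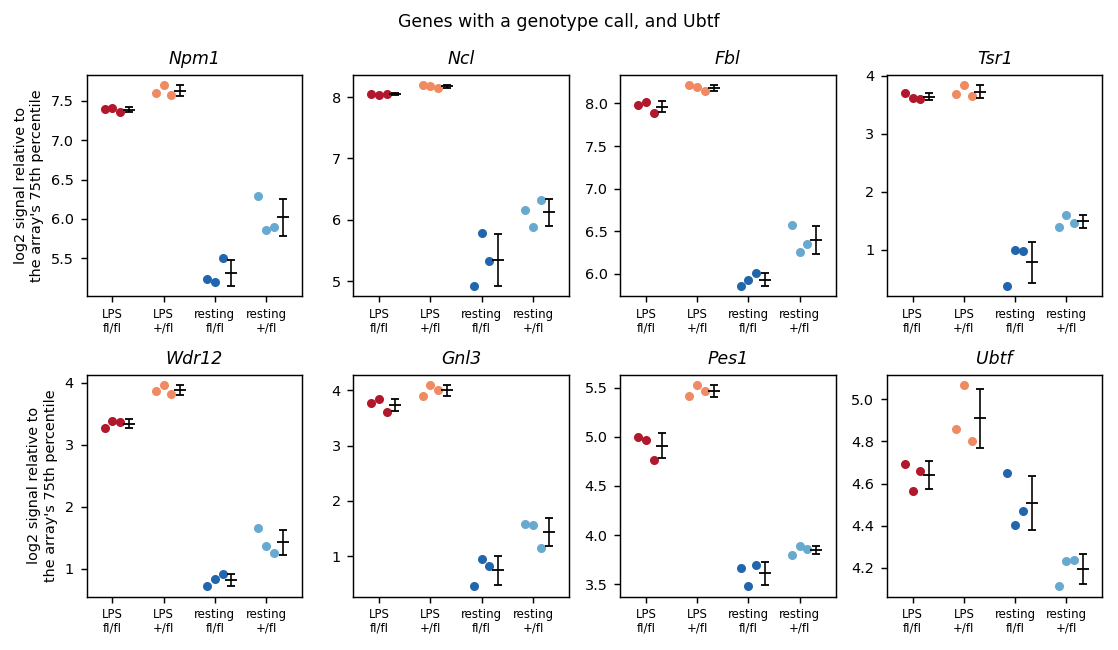
Points show the scaled log2 signal (array 75th percentile at 0) on each of the 12 arrays for the 7 genes with a genotype call and for Ubtf, with the mean and SD of each group of 3 beside them, and each panel has its own axis. The 6 genes called at rest separate the resting groups without overlap, Pes1 also separates the LPS groups, and Ubtf is the gene whose resting and LPS differences have opposite signs.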

How the data were processed

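Total RNA of sorted splenic B cells was hybridised to 12 Agilent 1-colour arrays (Cy3), 3 in each of 4 groups. The deposited files hold scanner output: intensity per spot as background-subtracted processed signal from Agilent Feature Extraction, version 9.5.3.1 per the file headers and 9.1 per the submitters' processing notes. The authors' deposited value table holds processed intensity, with its scaling and centring unstated, and was used as an alternative: all 12 of its column medians are 30.8, and its columns ranked probes like the scanner intensities of the same array (Spearman correlation across probes 0.9999 at the lowest). Probe positions in the headers are on mm7, so no probe coordinates are given.

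Control spots and spots with outlier flags were left out, spots of a probe were averaged, and the log2 of each deposited intensity was taken minus the log2 of the array's 75th percentile over its 43379 other spots. Probes well above background on at least 3 arrays were kept (25677 probes), named through accession, current or older symbol (RefSeq table), and the brightest kept probe stood for a gene (17133 genes). Of 81 member probes 80 were kept, and 22 members had more than 1; their signs differed between probes for 9 members in the resting comparison of genotypes, 5 in the LPS one and 1 in each LPS response. The fit was limma (version 3.58.1, R 4.3.3) over all 12 arrays without covariates, with p-values adjusted over all genes by the Benjamini-Hochberg method and called under 0.05; ± after a difference is its standard error. Tests were two-sided and were tried on simulated data. The number of arrays limits the precision.

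The members and all gene lists were chosen with earlier results of these data known. Genes were named by a rule: among members, the member with the smallest p in each role and comparison, the largest and smallest differences, the RNA polymerase I genes, Fbl, Ncl and Npm1, and members called in the interaction or against the usual direction, most with their values in every array; of other lists, the 3 called genes with the smallest p in each direction, most by their differences alone. Alternatives covered scaling, background correction, the filter on dim probes, the deposited values, slide and replicate blocks, the groups fitted, empirical Bayes settings, probe averaging, the threshold and leaving out arrays. One of them, normexp with repaired local background, was chosen after seeing the data. Arrays with the same replicate number showed little correlation between groups (correlations of deviations -0.079 to 0.126). Figures were drawn with matplotlib.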

Additional observations from a re-analysis of the deposited data

Results flagged for a closer look

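Ubtf was flagged because its 3 fl/fl arrays lay on opposite sides of its 3 +/fl arrays in the 2 conditions. Taken singly, such gaps were common: fl/fl was higher without overlap at rest for 18.7% of all genes. After LPS fl/fl was lower without overlap for 18.1%. The share of all genes with both was not counted, so how unusual Ubtf is cannot be said. At rest fl/fl cells averaged 4.51 ± 0.13 and +/fl cells 4.19 ± 0.07 (SD, n = 3 each), and after LPS fl/fl cells averaged 4.64 ± 0.07 and +/fl cells 4.91 ± 0.14. The difference of the differences was -0.58 ± 0.15 (SE), with an adjusted p of 0.106 over all genes with limma, so it did not pass the threshold. Over 27 alternatives it lay between -1.13 and -0.19, with adjusted p-values from 0.0472 to 0.999. It passed only with the trend and robust settings of the empirical Bayes step. Groups of 3 arrays were not searched for outlying arrays.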

How the results depend on the processing

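No call of a member reversed in 28 alternatives. Of 94 calls in the LPS responses 84 held in every alternative, and the other 10, of Emg1, Nop10 (both genotypes each), Imp4 (fl/fl), Imp3, Pes1, Polr1c, Tcof1 and Ubtf (+/fl), were lost in at least 1. The count of members higher after LPS lay between 43 and 47 in fl/fl cells and between 41 and 49 in +/fl cells, and with 1 array left out at a time between 46 and 47 and between 47 and 49. The genotype calls were less stable. At rest the count of 6 lower members became 0 with median scaling, normexp, only the groups compared, an adjusted p of 0.01, or without resting +/fl arrays 1 and 3. It became 1 without the filter on dim probes, 2 without the pair of +/fl arrays, 1 resting and 1 LPS, that carry the same number in their sample names, 10 with probes above background on all 12 arrays and 11 with the trend and robust settings, and 1 to 7 with 1 array left out. The calls over all genes changed as well. From 716 of 17133 genes lower at rest, they went to 231 with median scaling, 0 with normexp and 90 with only the groups compared. There were 123 at an adjusted p of 0.01, 246 of 27634 without the filter and 162 without that pair. With probes above background on all 12 arrays 911 of 13314 genes were lower, and 1016 of 17133 with trend and robust settings. After LPS the count of 1 became 0 with quantile, median scaling or normexp, without the filter, with the deposited values, slide as a fixed block, only the groups compared, the mean over probes, a threshold of 0.01, or without the arrays that share a number. It became 2 with repaired normexp, probes above background on all 12 arrays, slide as a random block, or trend and robust settings, and 0 to 2 with 1 array left out. Over all genes the 138 lower calls after LPS went to 81 with quantile normalization, 172 with median scaling and 0 with normexp. They went to 8 with only the groups compared, 236 with repaired normexp and 356 with trend and robust settings. The interaction count became 1 (Ubtf) with trend and robust settings and stayed 0 with 1 array left out. The cause of these changes was not tested.

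With the replicate block the resting count was 3, the LPS count 0 and the interaction count 0. Arrays with the same number showed little correlation of deviations (-0.079 to 0.126), which does not settle whether they were paired. The cause of the lower resting and LPS counts was not tested.

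The median member difference at rest moved to -0.091 with normexp and lay between -0.203 and -0.127 with 1 array left out. After LPS it moved to -0.15 (quantile), -0.786 (median scaling), 0.169 (normexp) and -0.154 (deposited values), against -0.264 as reported, with -0.301 to -0.216 when 1 array was left out. The median LPS response in fl/fl cells moved to 1.796 (median scaling), 2.279 (normexp) and 2.135 (repaired normexp), with 2.049 to 2.133 over single omissions. In +/fl cells it moved to 1.988 (quantile), 2.415 (median scaling), 1.983 (normexp), 2.218 (repaired normexp), 1.972 (deposited values), 2.113 (mean over probes) and 2.214 (without the arrays that share a number), with 2.145 to 2.194 over single omissions. The median interaction moved to 0.081 (quantile), -0.653 (median scaling), 0.234 (normexp), 0.075 (deposited values) and -0.157 (without resting +/fl arrays 1 and 3), with -0.176 to -0.066 over single omissions. Scaling also moved the median of all genes: with median scaling it was -0.48 for fl/fl minus +/fl after LPS, -0.23 and 0.22 for the LPS response in fl/fl and +/fl cells, and -0.53 for the interaction. On 3 arrays normexp met 7, 20 and 16 spots of very high local background, and the repair set these to the array median.

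Signal over background limited only Imp4, whose resting fl/fl array 1 was not well above it. With 3 arrays a group, the 95% interval of the interaction reached 0.407 log2 units to either side for the median member.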

Other observations

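The ribosomal protein genes themselves were also read, and how many were called lower after LPS depends on the scaling. Of 82 cytosolic ribosomal protein genes, a list taken by symbol after seeing the data, 5 were higher and 38 lower after LPS in fl/fl cells, and 3 were higher and 40 lower in +/fl cells, relative to the array's 75th percentile. Of all genes 29.9% were higher and 25.7% lower in fl/fl cells, and 30.4% and 27.4% in +/fl cells. The median of the 82 was -0.34 in fl/fl cells, against 0.06 over all genes, and -0.37 in +/fl cells, against -0.03 over all genes. After quantile normalization 12 of the 82 were higher and 14 lower in fl/fl cells (median -0.04) and 12 higher and 13 lower in +/fl cells (median -0.02), so the excess of lower calls was not kept. Of all 17133 genes, 4503 were then higher and 5000 lower in fl/fl cells, and 4739 and 4638 in +/fl cells. Over all alternatives the median of the 82 lay between -0.63 and 0.06 in fl/fl cells and between -0.47 and -0.005 in +/fl cells. Many members of this family have near-identical pseudogene copies that a probe may not tell apart. At rest 0 of the 82 were higher and 3 lower in fl/fl cells than in +/fl cells, against 4.63% and 4.18% of all genes. After LPS 0 of the 82 were higher and 1 lower, against 0.887% and 0.805% of all genes. Yet 61 of the 82 were then below 0 (median -0.13, against 0.04 over all genes). Without overlap 34 were lower, against 18.1% of all genes, and 1 was higher. Over all alternatives this median lay between -0.65 and 0.36.

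The median SD of the members was 0.087 in LPS fl/fl cells and 0.104 in LPS +/fl cells, against 0.136 in resting fl/fl cells and 0.155 in resting +/fl cells. This difference in spread was not tested.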
